A study of Danio rerio with 4 samples.

Results

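In zebrafish ventricle libraries of 6-month fish, 552 of 1563 cardiomyocyte barcodes held at least 3 UMIs (unique molecular identifiers, each counting 1 captured RNA molecule), summed over fbxo32, cited4a, pdk2a and trim63a. These barcodes are called rule cells here. A cardiomyocyte was a barcode with at least 200 detected genes, at most 25% mitochondrial UMIs and at least 3% of its UMIs from myl7, the atrial and ventricular myosin light chain of the zebrafish heart. The rule cells were 345 of 891 cardiomyocytes in the mutant library and 207 of 672 in the wildtype library, and the series holds 11795 barcodes in 4 libraries. They were set against the 295 mutant and 285 wildtype cardiomyocytes that had 0 UMIs of the same genes, each within its own library. The other 251 mutant and 180 wildtype cardiomyocytes had 1 or 2 such UMIs. A class cut from a count per cell is a range and not a cell type: 61 mutant and 54 wildtype cells lay just inside the threshold with 3 UMIs, and 85 mutant and 60 wildtype cells lay just outside it with 2 UMIs.

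The study sorted ventricle cells with EGFP driven by pdgfrb, a receptor gene of mural cells and some fibroblasts, and made 1 library from each of 4 groups of strain AB fish. The mutant fish carried Tg(pdgfrb:EGFP; cxcl12b:Citrine; fli1a:DsRed) and were pdgfrb-/- with the um148 allele, at 6 months of age, and the wildtype fish carried those 3 transgenes, also at 6 months. The injured fish had lost the apex of the ventricle by amputation 7 days earlier. They and the uninjured fish were 18 months old and carried Tg(pdgfrb:EGFP; cxcl12b:Citrine). The number of fish per library is not given in the sources used here, so a library is 1 sample, no test between libraries was possible and every interval below covers counting error only.

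fbxo32 (atrogin-1) and trim63 (MuRF1) encode muscle ubiquitin ligases that mark proteins for the proteasome, and in mammals both are induced in wasting or fasted muscle through FoxO transcription factors. Pyruvate dehydrogenase kinases such as PDK2 phosphorylate and inhibit the pyruvate dehydrogenase complex, which turns muscle from glucose towards fatty acid oxidation. CITED4 binds the coactivators CBP and p300, and in mice it has been linked to heart growth with exercise.

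The rule cells had cardiomyocyte transcripts and little EGFP. All 11 cardiomyocyte markers found in the files were detected in the rule cells, with a median of 638 marker UMIs per mutant cell and 587 per wildtype cell. EGFP was found in 6 of 345 mutant and 2 of 207 wildtype rule cells. It was as rare in the 0-UMI cardiomyocytes, in 6 of 295 mutant and 4 of 285 wildtype cells. Of the 9 marker lists for other cell types, every list but skeletal muscle had a median of 0 UMIs per rule cell. The skeletal muscle list includes creatine kinase and actin markers that the heart also uses, and had tnnt3a, tnnt3b, pvalb1, pvalb2 and myhz1.1 at 0. Of its myosin light chain genes, mylz3 was detected in mutant and mylpfa in wildtype rule cells. Both were at 0 in the 0-UMI cardiomyocytes of both libraries. Thrombocyte markers were at 0 in both groups of cells of both libraries, and leukocyte markers had 2 UMIs over the 345 mutant and 0 over the 207 wildtype rule cells. Mural markers summed to 68.4 CPM (a gene's UMIs scaled to 1000000 UMIs of the summed cells) in rule cells against 35.7 CPM in 0-UMI cardiomyocytes of the mutant, and to 149 against 21.1 CPM in wildtype. pdgfrb itself had 0 UMIs in mutant rule cells and 2 UMIs, in 1 cell, in wildtype rule cells, and single cells held up to 31 and 33 mural UMIs in mutant and wildtype. Epicardial markers summed to 189 against 65.4 CPM in mutant and 94.8 against 35.9 CPM in wildtype, with krt91, wt1b, aldh1a2 and c4b at 0 in the rule cells of both. Of 12 mural markers 5 were detected in mutant and 10 in wildtype rule cells, and of 10 epicardial markers 3 and 6. Fibroblast markers summed to 83 against 36 UMIs (72.8 against 71.3 CPM) in mutant and 110 against 44 UMIs in wildtype, and endothelial markers to 14.9 against 5.94 CPM and 29.2 against 2.11 CPM. Their part in the results below was not tested. No barcode was shared between the mutant and wildtype libraries, and no rule cell's barcode was shared by any pair of the 4 libraries.

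The rule cells were deeper and more complex than the cells they were set against, and these differences go with every result below. In the mutant the median was 3134 UMIs (504 to 8984) in rule cells and 1595 UMIs (511 to 4280) in 0-UMI cardiomyocytes. In wildtype it was 3018 UMIs (583 to 11539) in rule cells and 1473 UMIs (500 to 5504) in 0-UMI cardiomyocytes. The deepest rule cells lay above every 0-UMI cardiomyocyte of their library. With each cell thinned to 1000 UMIs, which left out 10 and 60 mutant and 5 and 77 wildtype cells of the rule and 0-UMI groups, the median number of detected genes was 370 in rule cells against 307 in mutant, and 381 against 306.5 in wildtype. The median mitochondrial share was 0.754% of UMIs in rule cells against 1.22% in mutant, and 0.366% against 0.943% in wildtype. The rule counts UMIs, so a deeper cell meets it more easily, and the part of depth in the results was not tested beyond the pairing by depth given below.

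Of the rule genes, pdk2a gave more of the UMIs that chose the cells than any other, and fbxo32 the fewest. The values in this paragraph describe what the rule used. In mutant rule cells pdk2a had 1448 UMIs, 48.3% of the rule UMIs, and was seen in 338 of 345 cells. trim63a had 899 UMIs in 248 cells, cited4a 421 UMIs in 183 cells and fbxo32 230 UMIs in 137 cells. In wildtype rule cells pdk2a had 784 UMIs in 199 of 207 cells, trim63a 356 UMIs in 138 cells, cited4a 244 UMIs in 119 cells and fbxo32 85 UMIs in 55 cells. The order of the genes was the same in both libraries. UMIs of at least 2 of the 4 genes were present in all but 37 mutant and 29 wildtype rule cells, and all 4 genes were present in 70 mutant and 28 wildtype cells. Without pdk2a, 183 mutant and 98 wildtype rule cells would still meet the threshold, against 328 and 200 without fbxo32. In a mutant rule cell the most UMIs of 1 rule gene were 47, of trim63a.

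The rule genes lay in the same cells. Each gene was measured in cardiomyocytes chosen by the other 3 (at least 2 UMIs of them, against 0), so that the gene itself chose no cell of its own contrast. The 4 genes were chosen with earlier results of these data known, so these values are a description. cited4a, whose level in the chosen mutant cells was 318 CPM against 17.3 CPM, was 18.4-fold higher (log2 4.20, interval 3.26 to 5.34). In wildtype it had 301 CPM against 60.0 CPM, a 5.02-fold difference (log2 2.33, interval 1.79 to 2.91). fbxo32 was 12.6-fold higher in mutant, with 223 UMIs over 417 chosen cells against 7 over 302 others, and 8.55-fold higher in wildtype, with 85 UMIs over 263 cells against 6 over 291. The interval of fbxo32 was log2 2.58 to 4.98 in mutant and 1.92 to 4.58 in wildtype. trim63a was 10.4-fold higher in mutant and 9.97-fold in wildtype. pdk2a differed least, 3.46-fold in mutant and 3.39-fold in wildtype, and was also the gene found most widely in the cells with 0 UMIs of the other 3, in 40.9% of them in mutant and 30.5% in wildtype. Between cells paired by total UMIs to within 1.25-fold the folds were 18.8, 12.1, 9.76 and 3.42 for cited4a, fbxo32, trim63a and pdk2a in mutant, and 4.39, 6.38, 10.8 and 3.15 in wildtype. The 4 genes were thus higher between depth-matched cells too, though the chosen cells of these pairs were still deeper. For fbxo32 in mutant the medians were 2280 against 1848.5 UMIs, and for cited4a in wildtype 2459 against 1987.

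**Figure D1:**
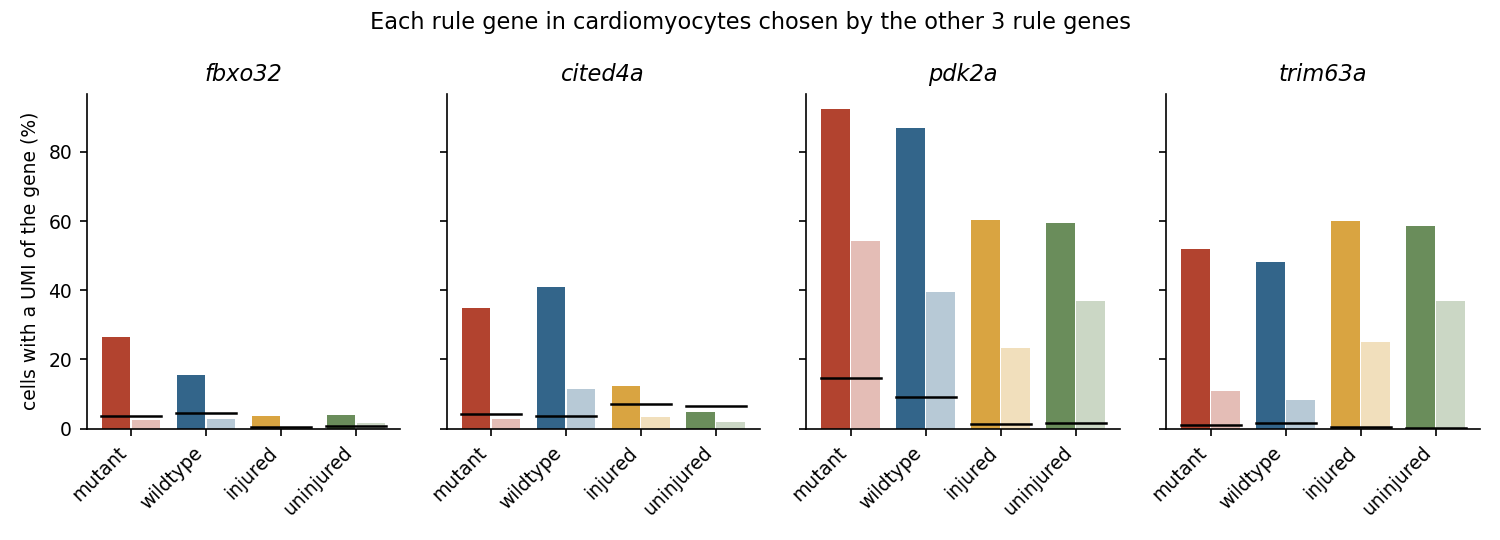
Share of cardiomyocytes with a UMI of each rule gene (y axis, percent) in 4 libraries, for cells with at least 2 UMIs of the other 3 rule genes (full colour) and cells with 0 of them (pale), paired by total UMIs; the black line is the share in barcodes with myl7 under 1% of UMIs, at their own depth. In mutant and wildtype the full bars stand above the pale bars for all 4 genes, and fbxo32 and cited4a are low in both 18-month libraries. For cited4a in uninjured the black line (6.57%) lies above the full bar (4.88%).

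Free RNA in droplets can give UMIs to cells that do not express a gene, so the same genes were counted in barcodes that passed the filters with myl7 under 1% of UMIs. trim63a, the muscle ligase gene, was found in 1.04% of 193 such mutant barcodes (median 2088 UMIs) and 1.61% of 248 such wildtype barcodes (median 1318 UMIs). In cardiomyocytes it was found in 33.6% in mutant (median 2212 UMIs) and 26.3% in wildtype (median 1991 UMIs). fbxo32 was found in 3.63% and 4.44% of these other barcodes of mutant and wildtype, and in 17.3% and 9.67% of their cardiomyocytes. pdk2a was the least restricted, at 14.5% and 9.27% outside and 60.5% and 47.9% inside cardiomyocytes. For all 4 genes the cardiomyocyte share was the higher one in both libraries. The intervals overlapped for fbxo32 in wildtype (7.54 to 12.2% in cardiomyocytes, 2.23 to 7.80% outside them). They did not overlap in the other comparisons of these libraries. In the injured and uninjured libraries cited4a went the other way, at 4.34% and 2.10% of cardiomyocytes against 7.19% and 6.57% outside them. Its intervals overlapped in injured and not in uninjured, and the barcodes outside were deeper. There fbxo32, pdk2a and trim63a still had the higher share in cardiomyocytes. How much cited4a of injured and uninjured rule cells came from free RNA was not tested.

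Rule cells were 38.7% of cardiomyocytes in the mutant library (interval 35.5 to 42.0%) and 30.8% in the wildtype library (27.3 to 34.4%). Cardiomyocytes with 0 rule-gene UMIs were 33.1% in mutant and 42.4% in wildtype. After thinning every cardiomyocyte to 1000 UMIs, at least 3 rule-gene UMIs were left in 18.4% of 799 mutant cells and 13.7% of 568 wildtype cells. The mutant share was the higher one before and after thinning, but with 1 library each the genotype and the library cannot be told apart. By the same rule 13.5% of 622 injured and 14.8% of 1049 uninjured cardiomyocytes of the 18-month fish were rule cells, although their cardiomyocytes were deeper, and after thinning 0.530% and 1.98% were. fbxo32 had 5 UMIs over the 84 injured and 15 UMIs over the 155 uninjured rule cells, and cited4a had 34 and 16 UMIs. In the 18-month libraries trim63a and pdk2a gave 47.2% and 44.0% of the rule UMIs in injured fish, and 409 and 362 UMIs in uninjured fish. Age, transgenes and library go together in these groups.

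Across genes, rule cells were marked by transcripts of immediate early and stress response genes, of insulin and fasting signalling, and of small heat shock proteins and natriuretic peptides, while none of the measured respiratory chain and ribosomal protein genes differed 2-fold in both libraries. A gene was measured if it had at least 50 UMIs over both groups of cells in each 6-month library, and called if its CPM differed at least 2-fold in the same direction in both libraries. Of 1195 genes measured, 191 (16.0%) were higher and 3 (0.251%) lower in rule cells. Within 1 library the shares past 2-fold were 24.8% higher and 0.577% lower of 1561 genes in mutant, and 23.5% higher and 1.63% lower of 1228 genes in wildtype. The median over all measured genes was a log2 ratio (rule cells over 0-UMI cardiomyocytes) of 0.24 in mutant and 0.28 in wildtype. A gene low in the 0-UMI cells could pass the minimum only through the rule cells, which favours higher calls: of 902 genes with at least 20 UMIs in the 0-UMI cardiomyocytes of each library, 56 were higher and 5 lower. TMM scaling, which takes most genes as level, moved every log2 ratio down by 0.49 in mutant and 0.51 in wildtype, and then 127 genes were higher and 19 lower. Between 212 mutant and 152 wildtype pairs of cells matched for depth to within 1.25-fold, in which rule cells were still deeper (medians of 2271 against 1901.5 UMIs in mutant and 2527 against 2077 in wildtype), 108 of 840 genes were higher and 0 lower, and 104 of the 108 were among the 191.

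**Figure D2:**
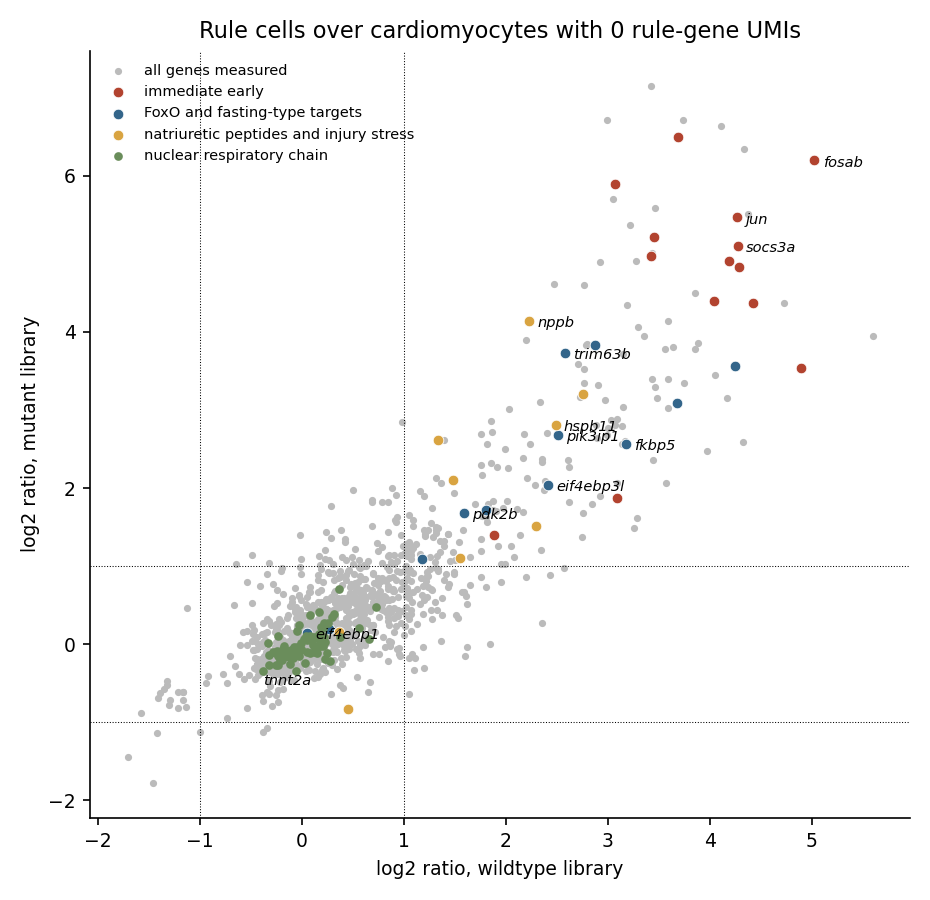
Log2 ratio of rule cells over cardiomyocytes with 0 rule-gene UMIs for each of 1195 genes, in the wildtype library (x axis) and the mutant library (y axis), with dotted lines at 2-fold and 3 gene lists and the nuclear respiratory chain coloured. Immediate early genes lie at the upper right in both libraries, 10 of 12 FoxO and fasting-type targets lie past both upper lines, and the respiratory chain genes lie near 0.

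The largest list medians were those of immediate early genes, which cells switch on within minutes of a stimulus. The cells came from enzyme-digested and sorted tissue, and how much of the immediate early level arose in those steps was not tested. All 14 measured members of the list were higher in rule cells, with medians of 4.94 in mutant and 4.11 in wildtype, and with TMM scaling 13 of 14 were. This count leans on the filter, since nearly all members passed the minimum through the rule cells: btg1 was the 1 member with at least 20 UMIs in the 0-UMI cardiomyocytes of each library, at 1.40 in mutant and 1.88 in wildtype. fosab, a Fos subunit of the AP-1 factor, had 1450 CPM in rule cells against 19.8 CPM in 0-UMI cardiomyocytes of the mutant (1653 against 10 UMIs) and 1514 against 46.5 CPM in wildtype (1038 against 22 UMIs). It was seen in 59.7% against 2.03% of mutant cells and in 77.8% against 5.61% of wildtype cells, log2 ratios of 6.19 (interval 5.31 to 7.26) and 5.03 (4.42 to 5.71). jun, its AP-1 partner, had log2 ratios of 5.47 and 4.27 in mutant and wildtype, and socs3a, a feedback inhibitor of cytokine signalling through JAK and STAT, 5.10 and 4.28. ier2b and the antiproliferative gene btg2 had 6.49 and 4.83 in mutant and 3.69 and 4.29 in wildtype. fosb had 203 and 79 UMIs in mutant and wildtype rule cells and 0 in the 0-UMI cells of both, at least 30.0-fold and 18.2-fold higher against a floor of 3 UMIs over those cells.

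The other leading genes had varied roles. gadd45ba, a growth arrest and DNA damage gene, had 1280 UMIs in rule cells against 7 in 0-UMI cardiomyocytes of the mutant and 818 against 28 in wildtype, log2 ratios of 6.34 and 4.33. jdp2b, an AP-1 repressor in mammals, had 674 against 0 UMIs in mutant, at least 99.5-fold against the same floor, and 375 against 15 in wildtype (log2 4.11). cebpd, a transcription factor of the acute phase response, had log2 ratios of 4.49 in mutant and 3.85 in wildtype, and nfkbiab, an inhibitor of NF-kappaB, 4.36 and 4.73. rrad, a small GTPase that restrains cardiac calcium channels, had 3.78 and 3.56, phlda2 had 5.02 and 3.44, and the Myc gene mycb 5.58 and 3.46. si:ch73-335l21.4, which the files give no other name, had 237 against 1 UMIs in mutant and 270 against 14 in wildtype, in 38 mutant and 53 wildtype rule cells. The leading genes were picked by the lower bound of their intervals, so that these bounds are a description: they were at least 2.79 in both libraries. Of the genes in this paragraph only rrad had at least 20 UMIs in the 0-UMI cardiomyocytes of each library (21 in mutant and 27 in wildtype). The others had fewer there in at least 1 library, and passed the minimum through the rule cells, where they are high.

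The FoxO and fasting list, with the rule genes left out, held translation, insulin signalling and fuel genes. Of its 12 measured members 10 were higher in rule cells, against 16.0% of all genes, with medians of 2.30 in mutant and 2.46 in wildtype, and 9 were with TMM scaling. Of its 7 members with at least 20 UMIs in the 0-UMI cardiomyocytes of each library 5 were higher, beside 56 of all 902 such genes. The medians of the 7 were 1.68 and 1.59, beside 0.07 and 0.11 over the 902. eif4ebp3l, a repressor of cap-dependent translation of the 4E-BP family, had 1427 CPM against 346.6 CPM in mutant and 1072 against 200.8 CPM in wildtype, log2 ratios of 2.04 (interval 1.82 to 2.27) and 2.42 (2.11 to 2.74). Its relative eif4ebp1 had 0.14 and 0.05, so the 4E-BP genes differed from each other. fkbp5, a glucocorticoid-induced co-chaperone, had 453 against 34 UMIs in mutant and 459 against 35 in wildtype, log2 2.56 and 3.18. tsc22d3 (GILZ), another glucocorticoid target, had 3.08 and 3.67. The insulin receptor substrates irs2b and irs2a had 3.83 and 3.56 in mutant and 2.87 and 4.25 in wildtype. pik3ip1, an inhibitor of PI3 kinase, had 2.68 and 2.51, and the stress-induced sestrin sesn1 1.72 and 1.80. Of these, tsc22d3, irs2b, irs2a and sesn1 had under 20 UMIs in the 0-UMI cells of at least 1 library. They passed the minimum through the rule cells, where they are high. ppp1r3cb, a glycogen-targeting phosphatase subunit, had 0.19 and 0.26 and was not called.

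The paralogs of the rule genes went the same way. trim63b had 150 UMIs in rule cells against 5 in 0-UMI cardiomyocytes of the mutant and 104 against 12 in wildtype, log2 3.73 (interval 2.48 to 5.38) and 2.58 (1.71 to 3.58). It passed the minimum through the rule cells, where it is high. pdk2b had 644 against 89 and 418 against 96 UMIs, log2 1.68 (1.36 to 2.02) and 1.59 (1.26 to 1.92). Paralogs that share sequence near the 3′ end can share reads, and how reads were split between them is not given in the sources used here. cited4b had 22 against 1 UMIs in mutant and 16 against 0 in wildtype, too few to be measured. pdk4, the fasting-induced kinase of the same family, was also higher (1.09 and 1.18). Among the 9 measured genes of the pyruvate dehydrogenase list only pdk2b and pdk4 were called, beside 16.0% of all genes. Among genes with at least 20 UMIs in the 0-UMI cardiomyocytes of each library they were 2 of 9, beside 56 of 902. The complex these kinases act on differed little: pdha1a and pdhb, its E1 subunits, had 0.02 and 0.06 in mutant and −0.04 and 0.14 in wildtype, below the median of all genes.

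Protein turnover genes other than the rule genes gave few calls. Of 5 measured muscle ubiquitin ligases and partners, trim63b and the ubiquitin gene ubb were called, beside 16.0% of all genes. ubb had 445 against 15 UMIs in mutant and 257 against 20 in wildtype (log2 3.72 and 3.15). Neither called gene had at least 20 UMIs in the 0-UMI cardiomyocytes of each library. Of the 2 list members that did, 0 were higher. Ubiquitin genes encode near-identical repeats, so ubb is uncertain. trim55b (MuRF2) had 0.64 and 1.03. Of 6 autophagy genes map1lc3a, the LC3 coat protein of autophagosomes, was called at 1.11 and 1.26, and none with TMM scaling. A share of 1 in 6 is near the 16.0% called over all genes. None of the 11 proteasome genes was called, with medians of 0.25 in mutant and 0.86 in wildtype.

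Fuel use genes gave few calls beside the 16.0% over all genes. Among genes with at least 20 UMIs in the 0-UMI cardiomyocytes of each library, 56 of 902 were higher. There fatty acid use had 1 of 15 and glycolysis 1 of 17 higher, shares near that of all such genes. Of 16 measured genes of fatty acid use acadvl, the very long chain acyl-CoA dehydrogenase, was called (777 against 355 CPM in mutant, 801 against 391 CPM in wildtype), and fabp3, the heart fatty acid binding protein, had log2 ratios of 0.02 and 0.01. Of 18 glycolysis genes pfkmb (1.43 and 1.32) and aldocb (1.79 and 1.83) were called, while gapdh had −0.26 and −0.36. aldocb had under 20 UMIs in the 0-UMI cells of at least 1 library, and passed the minimum through the rule cells, where it is high. Of 83 nuclear genes of the respiratory chain 0 were called in either direction, with medians of −0.06 and −0.01. The 12 mitochondrially encoded transcripts were lower, with medians of −0.66 in mutant and −1.31 in wildtype, and all 12 were past 2-fold in wildtype and none in mutant. Between cells paired for depth their medians were 0.04 and −0.74, so the direction in mutant did not hold between depth-matched cells. The rule's own cap on mitochondrial UMIs bears on these transcripts.

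**Figure D3:**
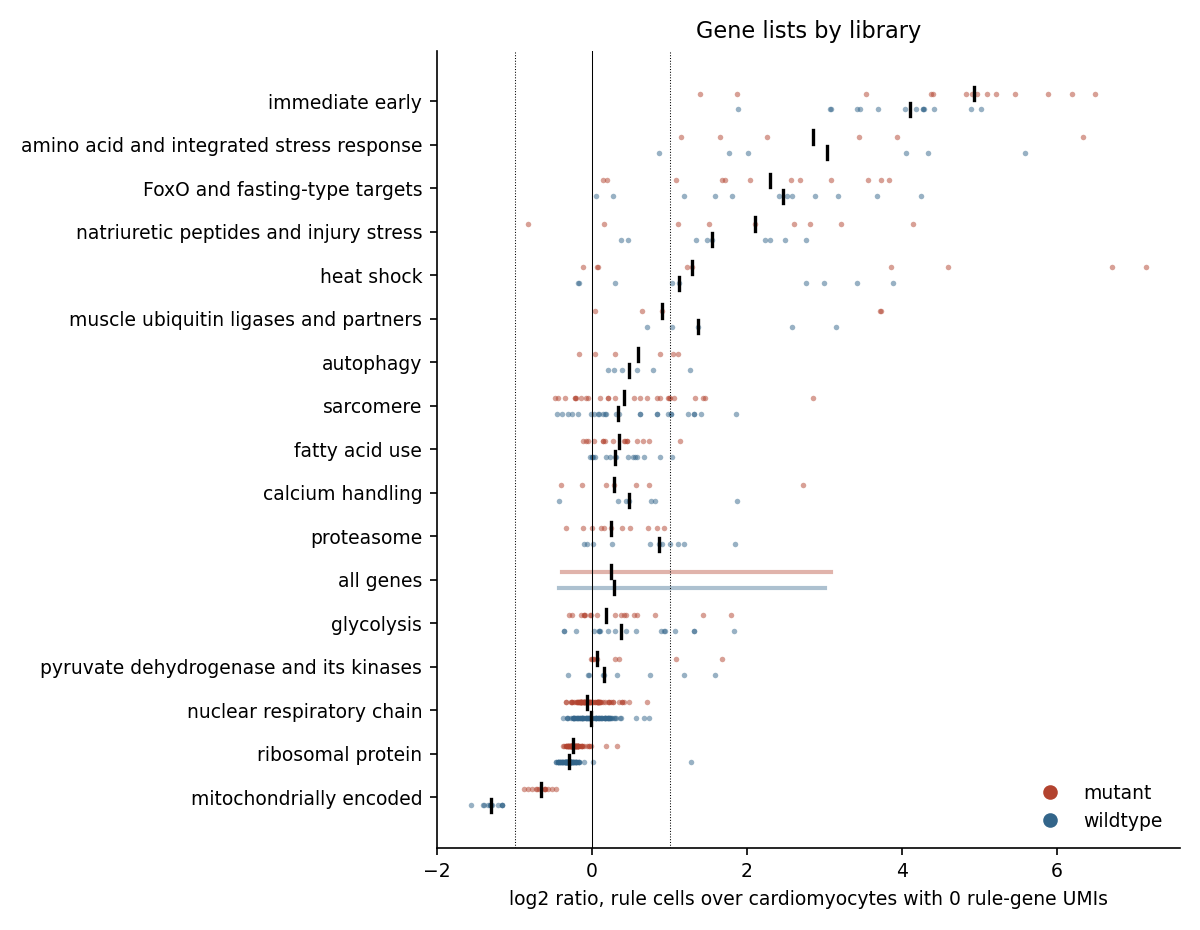
Log2 ratio of rule cells over 0-UMI cardiomyocytes for each measured gene (points) of the lists with at least 5 measured genes, in mutant (upper row of each list) and wildtype (lower row), with the median as a black bar and, for all genes, the middle 90% as a line. Immediate early, stress response, FoxO and fasting-type, and natriuretic and injury stress genes have medians above 1.5 in both libraries, and the respiratory chain and ribosomal lists lie within 1 of 0 but for 1 ribosomal gene.

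Over all measured genes, contractile genes were called about as often as others. Of 24 sarcomere genes with at least 20 UMIs in the 0-UMI cardiomyocytes of each library 3 were higher (ttn.1, ttn.2 and tcap). Of all 902 such genes 56 were higher, a smaller share. Of 26 measured sarcomere genes 5 were higher, beside 16.0% of all genes, and 1 was with TMM scaling, and the list medians were 0.42 in mutant and 0.33 in wildtype: ttn.2 and ttn.1, which encode titin, had 1.46 and 1.06 in mutant and 1.32 and 1.31 in wildtype, the titin cap tcap 1.33 and 1.40, myom2a of the M-band 1.01 and 1.02, and the myosin chaperone unc45b 2.85 and 1.86. The abundant thin filament gene tnnt2a had 12959.8 CPM in rule cells against 17630.4 CPM in 0-UMI cardiomyocytes of the mutant, log2 −0.44, and −0.46 in wildtype. myl7, which the filter used, had −0.22 and −0.25. Of 7 calcium handling genes the sodium-calcium exchanger gene slc8a1a was called (2.72 and 1.87), a share near the 16.0% over all genes. The pump gene atp2a2a had 0.18 and 0.44 and was not called. Of the 5 calcium handling genes with at least 20 UMIs in the 0-UMI cardiomyocytes of each library, 0 were higher. slc8a1a passed the minimum through the rule cells, where it is high.

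Genes of cardiac stress were called more often than the 16.0% over all genes. Of 9 measured genes of natriuretic peptides and injury stress 7 were called, with medians of 2.10 in mutant and 1.55 in wildtype, and 4 were with TMM scaling. Of the 6 with at least 20 UMIs in the 0-UMI cardiomyocytes of each library 4 were higher (nppa, nppb, hspb11 and hspb7). Of all 902 such genes 56 were higher. nppb, the B-type natriuretic peptide gene, had 1292 CPM in rule cells against 73.3 CPM in 0-UMI cardiomyocytes of the mutant and 704 against 150 CPM in wildtype, log2 4.14 (interval 3.67 to 4.65) and 2.23 (1.87 to 2.61). nppa, the atrial peptide gene, had 2.10 and 1.48. hspb11, a small heat shock protein gene, had 3014 against 430 CPM in mutant and 5454 against 972 CPM in wildtype, log2 2.81 and 2.49. ankrd9, hspb7, hspb8 and tubb6 were the others called, and mustn1b (0.15 and 0.37) and tmsb4x were not. Of 9 heat shock genes 6 were called, among them hsp70.1, hsp70.2 and hsp70.3, near copies whose reads may be shared, and hspb1 (1.22 and 1.03), while the constitutive chaperones hspa8 (0.06 and −0.18) and hsp90ab1 (−0.12 and −0.17) were not. Of the 5 heat shock genes with at least 20 UMIs in those 0-UMI cells 2 were higher (hsp90aa1.1 and hspb1). The medians of these 5 were 0.07 in mutant and 0.30 in wildtype, beside 0.07 and 0.11 over all such genes. The other called heat shock genes passed the minimum through the rule cells, where they are high.

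Of 6 measured genes of the amino acid and integrated stress response 5 were called, beside 16.0% of all genes. The medians of the 6 were 2.85 in mutant and 3.03 in wildtype, beside 0.24 and 0.28 over all genes. Those called were gadd45ba, atf4b (2.25 and 2.02), its targets in mammals trib3 (3.94 and 5.59) and chac1 (1.65 and 1.77), and cebpb. The cardiac transcription factor genes nkx2.5 (2.27 and 2.62) and mef2aa (1.39 and 1.21) were the 2 regulators measured and both were higher, as were the hypoxia factor genes hif1al (2.87 and 3.03) and hif1ab (2.56 and 3.14). These regulators, the hypoxia factors and all measured members of the stress response list but chac1 had under 20 UMIs in the 0-UMI cells of at least 1 library, and passed the minimum through the rule cells, where they are high. The nuclear receptor gene nr1d2a, the circadian gene measured, had 50 against 4 UMIs in mutant and 68 against 0 in wildtype. hmgb2a was the measured gene of the cell cycle list, at 1.17 and 1.02, both near the 2-fold line. Of 79 ribosomal protein genes 0 were called, with medians of −0.24 and −0.30.

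The 3 genes lower in rule cells were znf106a, ktn1 and leo1. znf106a, a zinc finger gene, had 29 UMIs in rule cells against 44 in 0-UMI cardiomyocytes of the mutant and 36 against 68 in wildtype, log2 −1.78 and −1.45. ktn1, which encodes kinectin, had −1.44 and −1.71, and leo1, a subunit of the PAF1 complex, −1.14 and −1.42. All had fewer than 70 UMIs in each group of cells.

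**Figure D4:**
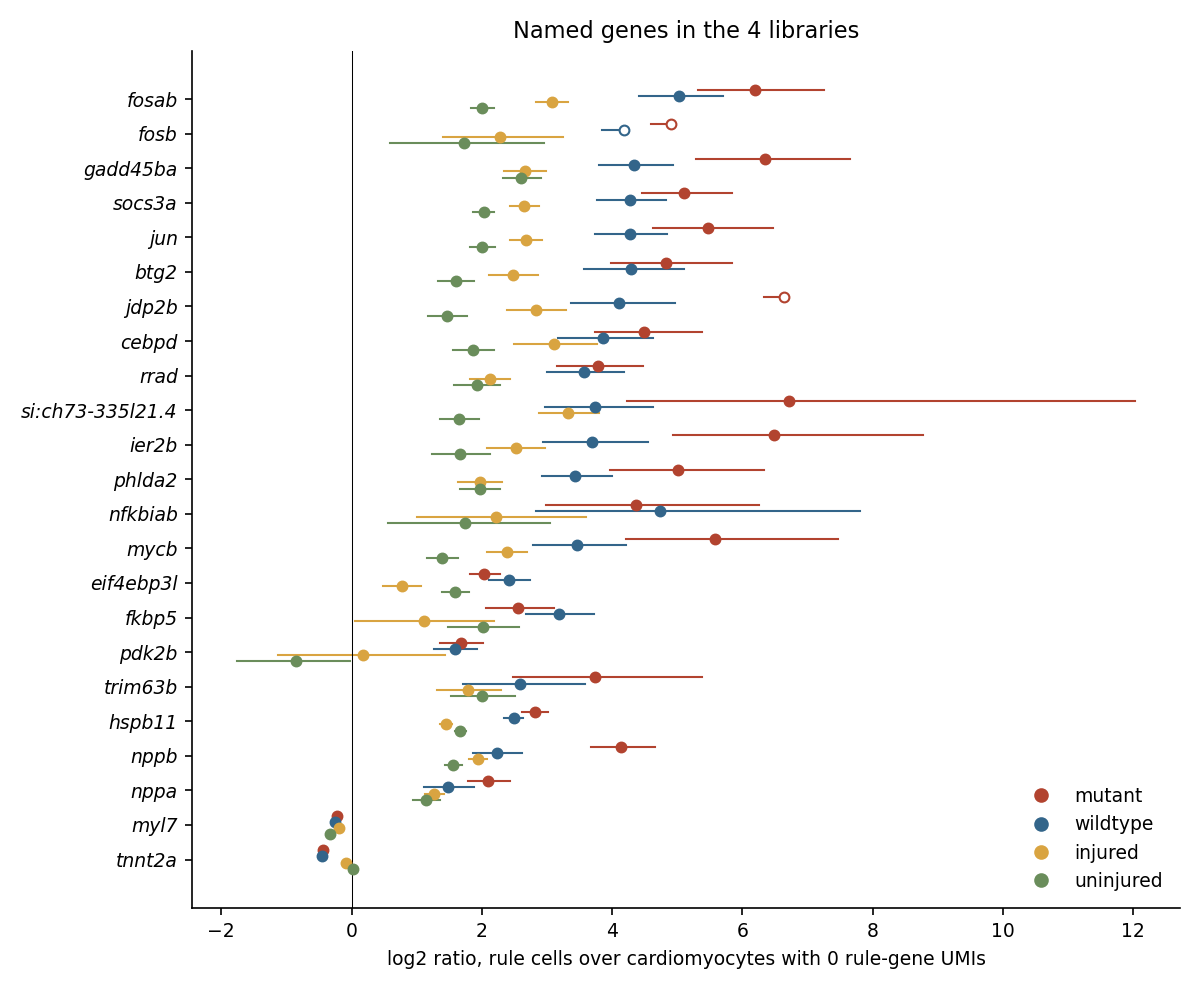
Log2 ratio of rule cells over 0-UMI cardiomyocytes (x axis) for the 14 leading genes and 9 genes of the lists, in the 4 libraries, with counting intervals as lines; open points are lower bounds where the 0-UMI cells had no UMI. The leading genes lie at 3.44 or more in both 6-month libraries and at 1.39 to 3.32 in the 18-month libraries, and myl7 and tnnt2a lie within 1 of 0 in all 4.

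Levels of the leading lists were higher in cells with more rule-gene UMIs. The summed immediate early level in the mutant was 347, 959, 2377, 4259 and 12710 CPM in cells with 0, 1 to 2, 3 to 4, 5 to 9 and 10 or more rule-gene UMIs, and in wildtype 452, 1889, 4625, 8282 and 8470 CPM. The FoxO and fasting list without the rule genes had 1697, 2602, 3328, 4509 and 6999 CPM in those mutant cells and 1509, 2395, 3520, 4653 and 6166 CPM in wildtype. Around the threshold, cells with 2, 3 and 4 rule-gene UMIs had 1455, 1879 and 2996 CPM of the immediate early list in mutant and 2504, 4767 and 4437 CPM in wildtype, so that in wildtype the larger difference lay at the threshold. Sarcomere genes had 256458 CPM in the lowest and 217744 CPM in the highest class of the mutant. Median depth went up along the same classes, 1595, 2104, 2349, 3101 and 3988 UMIs in the mutant, and its part was not tested.

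**Figure D5:**
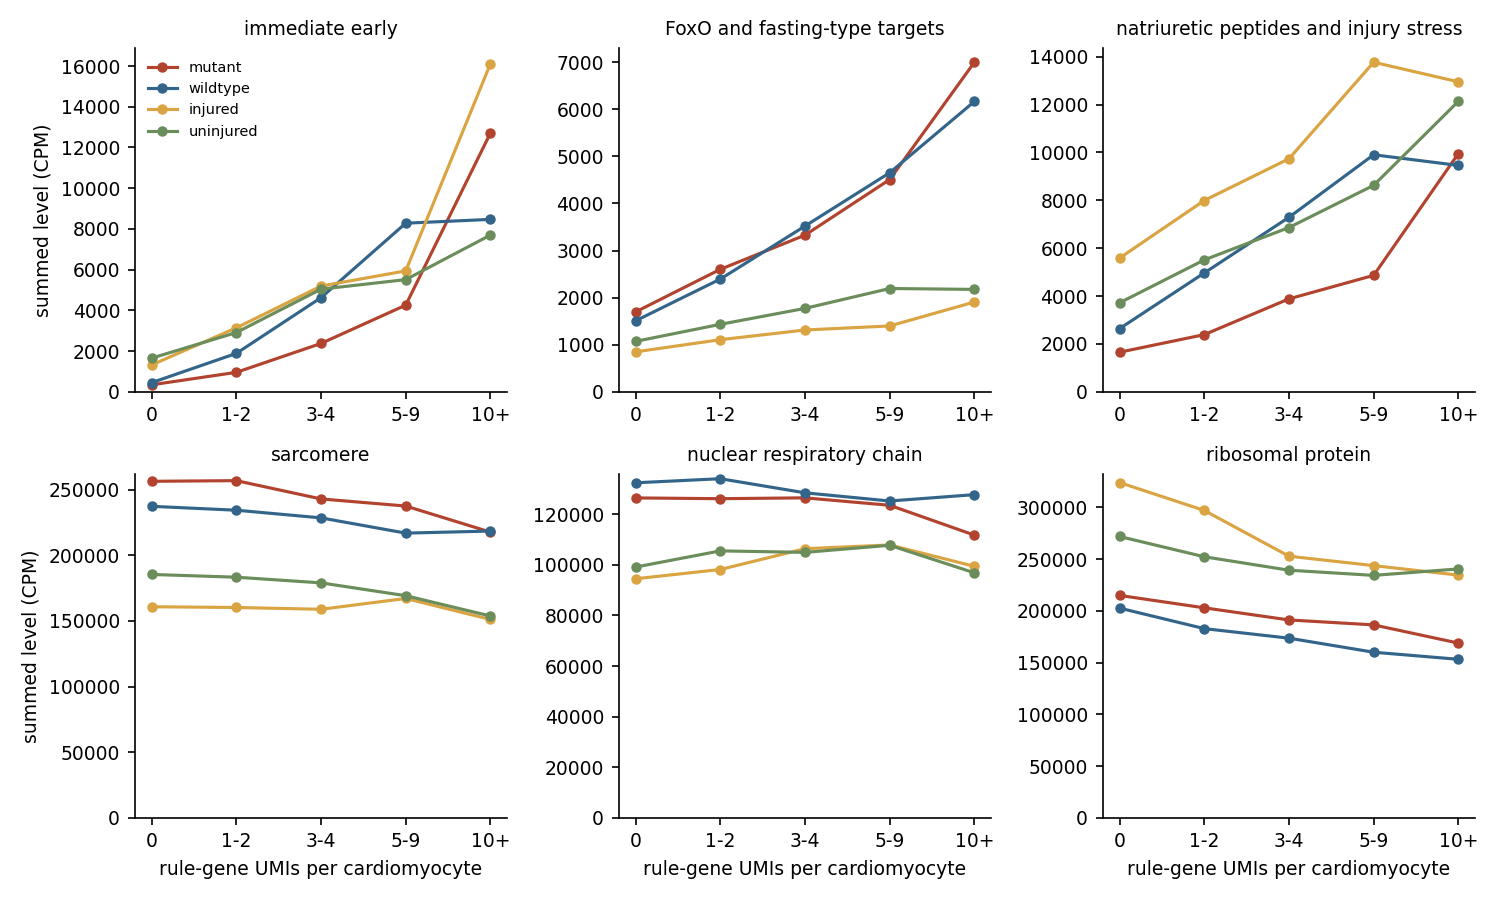
Summed level (CPM, y axis from 0) of 6 gene lists, rule genes left out, in cardiomyocytes by their rule-gene UMIs (x axis, 5 classes) for the 4 libraries. Immediate early, FoxO and fasting-type, and natriuretic and injury stress lists are lowest at 0 UMIs in every library, and sarcomere, respiratory chain and ribosomal lists change by much smaller ratios.

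Most rule cells held immediate early transcripts and few of the cells they were set against did. At least 3 UMIs of the list were present in 78.0% of rule cells against 4.41% of 0-UMI cardiomyocytes in mutant and in 87.4% against 8.42% in wildtype, and 0 were present in 24 mutant and 7 wildtype rule cells. To see what remained in cells alike in this respect, both groups were limited to cardiomyocytes with 1 to 9 immediate early UMIs, an alternative chosen after seeing the data. This left 159 rule cells against 100 others in mutant (median 2537 against 1846 UMIs) and 68 against 84 in wildtype (2352 against 1574 UMIs). Of 520 genes measured, 18 (3.46%) were then higher and 0 (0.00%) lower, all 18 among the 191. fosab (2.93 and 1.69), jun (57 against 6 and 51 against 15 UMIs), gadd45ba (3.96 and 1.22), cebpd (3.48 and 1.56) and phlda2 (2.73 and 1.01) still were, and the 4 immediate early genes measured there had medians of 1.90 and 1.08. eif4ebp3l (1.57 and 1.11), fkbp5 (2.04 and 1.64) and hspb11 (1.75 and 1.34) were also among them, as were hsd11b2, which encodes the enzyme that inactivates cortisol (2.64 and 1.32), the small heat shock protein gene hspb6 (1.43 and 1.91) and zfand5b (2.33 and 1.03). pdk2b (1.01 and 0.63) and nppb (2.52 and −0.82) were not. fosab, jun and the immediate early medians come from the list that set the limit, so they are a description. As over all cells, a gene low in the 0-UMI cells could pass the minimum only through the rule cells, which favours higher calls. Of the called genes named here, only eif4ebp3l, hspb11 and hspb6 had at least 20 UMIs in these 0-UMI cells of each library. fosab had 5 in mutant and 15 in wildtype, cebpd 6 and 11, and fkbp5 12 and 20. Of 5 FoxO and fasting genes measured there, 2 were called, with medians of 1.09 and 0.91 beside 0.01 and 0.05 over all genes. The groups still differed in immediate early level, 1420 against 785 CPM in mutant and 1717 against 1039 CPM in wildtype, and its part in the result was not tested further.

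The same contrast was made in the 18-month libraries, which the rule did not use. Within 1 library 16.4% of 1416 genes were higher and 0.494% lower in injured rule cells, and 15.4% higher and 1.28% lower of 1722 genes in uninjured rule cells. There 124 of 1375 genes (9.02%) were higher and 3 (0.218%) lower in both injured and uninjured rule cells. The rule cells were deeper there too, with medians of 6507 against 2413 UMIs in injured and 6084 against 1987 in uninjured. Between depth-matched cells fewer genes were called, as given below. The overlap with the 6-month calls, given next, was not repeated between depth-matched cells. Of 143 genes higher in both 6-month libraries and measured in all 4, 81 (56.6%) were also 2-fold higher in both 18-month libraries, against 93 of all 1096 genes measured in the 4 libraries (8.49%). Above 0 in both were 141 of the 143 (98.6%) against 697 of the 1096 (63.6%). At both ages a gene low in the 0-UMI cells could pass the minimum only through the rule cells, which favours higher calls. The overlap was not repeated for genes with at least 20 UMIs in those cells, so it is given as a description. fosab had log2 ratios of 3.07 in injured and 2.01 in uninjured, and gadd45ba 2.66 and 2.61, lower than in the 6-month libraries. In the 0-UMI cardiomyocytes of the 18-month fish the immediate early level was 1322 CPM in injured and 1656 CPM in uninjured, higher than in those of the 6-month libraries. pdk2b had 10 UMIs in 84 injured and 17 UMIs in 155 uninjured rule cells, with log2 ratios of 0.18 (interval −1.14 to 1.43) and −0.85 (−1.75 to −0.02). It was thus higher in neither beyond its interval, and in uninjured it was lower, with an interval just below 0. eif4ebp3l had 0.77 and 1.59, fkbp5 1.11 and 2.02. trim63b had 110 against 54 UMIs in injured and 137 against 49 in uninjured. Of the 5 FoxO and fasting genes measured in all 4 libraries, 2 were called in both 18-month libraries. The summed erythrocyte markers of injured rule cells held 3056 UMIs from 1 cell, which was left in.

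Between the mutant and wildtype libraries, few genes differed by 2-fold in rule cells. Of 1831 genes with at least 50 UMIs over both, 83 (4.53%) were at least 2-fold higher and 78 (4.26%) lower in mutant rule cells. In 0-UMI cardiomyocytes these were 25 (2.77%) and 34 (3.77%) of 902 genes. lxn, a carboxypeptidase inhibitor gene, had 170 UMIs in mutant and 10 in wildtype rule cells (log2 3.35, interval 2.44 to 4.44) and 61 and 14 in 0-UMI cardiomyocytes (2.03). twf2b, an actin-binding twinfilin gene, had 198 and 22 UMIs (log2 2.44, and 1.59 in 0-UMI cells), and the metallothionein gene mt2 69 and 4 UMIs (3.38). tcima was the lowest, with 63 UMIs in mutant and 776 in wildtype rule cells (log2 −4.36, interval −4.75 to −3.98), and 2 and 43 UMIs in 0-UMI cells (−4.52). zgc:86709 had 36 and 183 UMIs (−3.08, and −3.24 in 0-UMI cells) and ndrg3a 23 and 93 UMIs (−2.75, and −2.53). lxn, twf2b, tcima, zgc:86709 and ndrg3a went the same way in cells without rule-gene UMIs. mt2 was seen in 25 mutant and 2 wildtype rule cells, and 1 wildtype cell held 3 of its 4 UMIs. Without the cell of each library with most mt2 UMIs its ratio was 5.10, which rests on the little left in wildtype. Also high were rsrp1 with 85 against 7 UMIs and si:ch211-270g19.5 with 640 against 102, and mibp and pgp were low, with 24 against 93 and 11 against 47 UMIs.

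Mutant and wildtype rule cells were close in the FoxO and immediate early lists, and less so in glycolysis and mitochondrially encoded transcripts. The FoxO and fasting list had a median of 0.17 over 19 genes, with 2 higher and 0 lower, and the immediate early list 0.04 over 16 genes, with 1 higher and 1 lower. Glycolysis was the list with most lower genes, 6 of 19 beside 4.26% of all genes, with a median of −0.59 against −0.02 over all genes. Mitochondrially encoded transcripts had a median of 0.61 over 12 genes, none past 2-fold. Of the rule genes, which chose these cells, fbxo32 had a log2 ratio of 0.70, trim63a 0.60, pdk2a 0.15 and cited4a 0.05. With 1 library per genotype these values compare 2 libraries, and genotype and library cannot be told apart.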

How the data were processed

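The authors deposited raw UMI counts of each feature in each barcode. Their matrices name Cell Ranger 4.0.0, per the file headers. The submitters' processing notes give the build as GRCz11 and also name Seurat, without its step. Cells were digested with collagenase and elastase, sorted for EGFP and run on a 10x droplet kit (version v3.1), per the labels' protocols. The matrices hold 1504 (mutant), 1338 (wildtype), 3127 (injured) and 5826 (uninjured) barcodes with 500 or more UMIs, of which 1119, 949, 1393 and 2010 passed the filters on genes and mitochondrial share. Features with the same symbol were summed (25110 features, 24438 symbols).

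UMIs were summed over cells, scaled to all UMIs of those cells, and compared within a library as a log2 ratio with a 95% conditional binomial interval. A count of 0 was set to a floor of 3 UMIs over the group of cells, so that such ratios are bounds. Shares have Clopper-Pearson intervals at 95%. No test across samples was possible with 1 library per group. A call needed a 2-fold difference in both libraries. No doublet caller was run, and an alternative left out barcodes above the 95th percentile of UMIs. TMM and median-of-ratios factors were computed from their formulas. The ratio step was tested on simulated data. Python 3.11.15 was used with numpy 2.4.6, scipy 1.17.1 and pandas 2.3.3.

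The rule genes and their paralogs were named, with the 14 highest and up to 10 lowest genes, ranked by the interval bound nearest to 1 in the weaker library and without mitochondrial, ribosomal protein, haemoglobin and reporter genes. For mutant over wildtype the 5 highest and 5 lowest were named, and for each of 20 gene lists (16 by symbol, 4 by the start of the symbol) up to 4 members with most UMIs. Other list members, and the genes named from cells limited by immediate early UMIs, were chosen after their values were seen. The rule, the members and the lists were chosen with earlier results of these data known. Alternatives were cell thresholds, depth, scaling, minimum counts and single cells.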

Additional observations from a re-analysis of the deposited data

Results flagged for a closer look

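Rule-gene UMIs were also found in barcodes outside the filters on detected genes and mitochondrial share, which enter no comparison above. Of 385 such barcodes in the mutant library 58 (15.1%, interval 11.6 to 19.0%) had at least 3 UMIs of fbxo32, cited4a, pdk2a and trim63a, and of 389 in the wildtype library 22 did (5.66%, interval 3.58 to 8.44%). The median mitochondrial share of these barcodes was 74.1% of UMIs in mutant and 88.1% in wildtype, and the median depth was 720 and 626 UMIs. In the 18-month libraries 6 of 1734 injured and 12 of 3816 uninjured barcodes outside the filters had at least 3.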

How the results depend on the processing

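Called ratios of named genes kept their direction with TMM, depth matching, equal weight per cell, and without the deepest barcodes or the top cell. List medians given below did not, nor did nppb in wildtype among cells with 1 to 9 immediate early UMIs (−0.82). Shares of cardiomyocytes with at least 3 rule-gene UMIs moved with the threshold. With at least 2 UMIs they were 48.3% in mutant, 39.7% in wildtype, 22.7% in injured and 23.5% in uninjured, and with at least 5 UMIs 26.5%, 17.9%, 5.95% and 6.29% in that order. Thinned to 1000 UMIs, they were 53.4%, 46.5%, 19.8% and 22.1% for at least 1 UMI, 31.4%, 22.5%, 4.59% and 5.06% for at least 2, and 18.4%, 13.7%, 0.530% and 1.98% for at least 3. Without barcodes above the 95th percentile of UMIs the wildtype, injured and uninjured shares were 27.3%, 10.8% and 12.6%. The counts of genes higher and lower in rule cells were 191 and 3 of 1195 as reported, 108 and 0 between depth-matched cells, 127 and 19 with TMM, 125 and 23 with median-of-ratios factors, 456 and 8 with a minimum of 20 UMIs, 53 and 0 with 200 UMIs, and 317 and 16 at 1.5-fold. They were 18 and 0 in cells with 1 to 9 immediate early UMIs and 56 and 5 with 20 UMIs in the 0-UMI cells, both chosen after seeing the data. Of the lists, with TMM autophagy had 0 genes called, pyruvate dehydrogenase 1, fatty acid use 0, glycolysis 1, sarcomere 1 and natriuretic and injury stress 4. Between depth-matched cells fatty acid use had 0, the amino acid and integrated stress response 3, sarcomere 3 and heat shock 3, of fewer genes measured. The mitochondrial median in mutant was 0.04 between depth-matched cells. The medians of the autophagy (wildtype), pyruvate dehydrogenase, fatty acid, glycolysis, sarcomere, calcium and proteasome (mutant) lists were below 0 with TMM, which puts the median of all genes at −0.25 in mutant and −0.23 in wildtype. For mutant over wildtype rule cells a minimum of 20 UMIs gave 264 higher and 207 lower genes. In cells chosen by the other rule genes, pdk2a in injured was at 1.62 between depth-matched cells, and trim63a in uninjured at 0.74 there and 0.75 with at least 3 UMIs, and with both at 0.15 (interval −0.31 to 0.61). At 18 months the depth-matched counts were 57 and 0. Other causes were not tested. Of 164 values of named genes 103 moved beyond their interval with TMM, 28 with depth matching, 17 with equal weight per cell, 8 without the deepest barcodes and 4 without the top cell. No paired analysis was possible because each group is 1 library.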

Other observations

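Of the 18 genes higher in rule cells when both groups were limited to 1 to 9 immediate early UMIs, several were outside the lists. All values here are over those limited cells. sbk3, a kinase gene, had 53 UMIs in rule cells against 4 in 0-UMI cardiomyocytes of the mutant and 56 against 16 in wildtype (log2 2.52 and 1.54). usp2a, a deubiquitinase gene, had 92 against 18 and 48 against 18 UMIs (1.14 and 1.15), and ppp1r14c, an inhibitor of protein phosphatase 1, 49 against 9 and 43 against 9 (1.23 and 1.99). zgc:112356 and zgc:122979 had 1.70 and 1.41 in mutant and 1.39 and 1.82 in wildtype. All of these had under 20 UMIs in the 0-UMI cells of at least 1 library, and passed the minimum through the rule cells, where they are high. These genes were chosen after their values were seen.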
